A study of Mus musculus with 4 samples.

Results

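A set of 9 genes of MHC class I antigen presentation was followed through Mmp3-positive and Mmp3-negative cells of mouse subcutaneous fat. They were chosen by name for their roles and are the heavy chains H2-K1 and H2-D1, the light chain B2m, the peptide transporter subunits Tap1 and Tap2, the loading factor Tapbp, the immunoproteasome subunits Psmb8 and Psmb9, and the regulator Nlrc5. All 9 members were found among the 35580 genes of the deposited tables, and all 9 passed the filter on low counts that left 14185 genes tested. The cells were stromal vascular fraction cells, that is the non-adipocyte cells of fat, of wild-type (WT) C57BL/6 mice, and the labels gave no treatment and no age. There were 2 libraries of Mmp3-positive and 2 of Mmp3-negative cells, and each group had a library of Set 1 and a library of Set 2. How the cells were separated was given only as a reagent code. The labels do not state separate animals. P-values here therefore reflect nothing but the spread among these 4 libraries, and that spread may be technical.

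MHC class I molecules show peptides from inside the cell to CD8+ T cells and are found on nearly all nucleated cells, stromal cells included. Proteins are cut by the proteasome, in which interferon-induced subunits can replace the constitutive catalytic subunits. The peptides are carried into the endoplasmic reticulum by the transporter made of Tap1 and Tap2, and are loaded with the help of Tapbp (tapasin) onto a heavy chain paired with beta-2 microglobulin (B2m). Nlrc5 is the class I transactivator, which acts on promoters through an element with S, X and Y boxes, the Y box being an inverted CCAAT.

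The promoters show what the chain genes have in common besides function. RefSeq promoter windows on GRCm38.p6 were matched for 7 of the 9 members, and the 250 bases before the start site are printed for H2-K1 (chr17:34000348-34000597, minus strand), H2-D1 (chr17:35262844-35263093, plus strand) and B2m (chr2:122147437-122147686, plus strand). The 225 bases between the divergent starts of Psmb9 and Tap1 (chr17:34187331-34187555, plus strand) are given as well, since those genes share them. H2-K1 had another window, for a nearby start, that is not shown. Capitals mark matches, on either strand, to GGGNNTTCC (kappaB), to GAANNGAAA or GAAA, any 2 bases and GAAA (interferon response elements), to TGACG (the core of a CRE) and to CCAAT.
H2-K1: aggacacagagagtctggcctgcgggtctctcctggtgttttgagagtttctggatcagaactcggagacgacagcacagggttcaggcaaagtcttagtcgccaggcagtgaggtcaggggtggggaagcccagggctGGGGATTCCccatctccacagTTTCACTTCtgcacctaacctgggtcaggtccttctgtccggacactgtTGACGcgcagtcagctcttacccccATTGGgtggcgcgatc
H2-D1: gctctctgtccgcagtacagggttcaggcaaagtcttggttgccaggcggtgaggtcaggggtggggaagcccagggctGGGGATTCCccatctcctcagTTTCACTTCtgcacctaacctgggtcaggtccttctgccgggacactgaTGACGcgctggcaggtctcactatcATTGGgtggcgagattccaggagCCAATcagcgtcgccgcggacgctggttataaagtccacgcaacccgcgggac
B2m: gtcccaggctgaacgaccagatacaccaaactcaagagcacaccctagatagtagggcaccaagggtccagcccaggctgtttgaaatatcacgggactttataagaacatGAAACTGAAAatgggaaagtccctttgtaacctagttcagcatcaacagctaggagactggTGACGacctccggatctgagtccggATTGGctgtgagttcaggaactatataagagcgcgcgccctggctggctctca
Psmb9-Tap1: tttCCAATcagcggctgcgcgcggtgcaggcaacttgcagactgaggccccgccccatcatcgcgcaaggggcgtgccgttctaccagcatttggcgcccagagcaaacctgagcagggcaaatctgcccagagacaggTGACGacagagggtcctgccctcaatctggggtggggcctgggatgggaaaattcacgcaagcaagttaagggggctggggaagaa

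In H2-K1, H2-D1 and B2m the TGACG was followed by exactly 20 bases and then ATTGG, the inverted CCAAT. This spaced pair was found in 0.0913% of all promoter windows of the same length (30 of 32851), and was searched for after the sequences had been seen. The windows belonged to 26 genes, among them H2-M3, a nonclassical class I gene. Alone, the letters are common: 17.8% of the windows held TGACG, 33.8% CCAAT, 6.31% GAANNGAAA, 2.98% the GAAA pair and 4.98% GGGNNTTCC. The Psmb9-Tap1 stretch held TGACG and CCAAT 1 time each, without the spacing. The Tapbp window held 2 CCAAT matches and none of the other motifs, and the Psmb8 window held none of them. A match is a description of the letters only. Tap2 and Nlrc5 were not matched.

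Most members lie close together in the MHC region (GENCODE M21 on GRCm38, whole genes). Tapbp is at chr17:33915899-33929292 and H2-K1 at chr17:33996017-34000347. Psmb9 (chr17:34181987-34187764), Tap1 (chr17:34187553-34197225), Psmb8 (chr17:34197721-34201454) and Tap2 (chr17:34203527-34216321) follow one another, and H2-D1 is at chr17:35262730-35267499. H2-K1 and Psmb9 are on the minus strand and the others on the plus strand. B2m (chr2:122147686-122153083) and Nlrc5 (chr8:94434356-94527272) are elsewhere, both on the plus strand.

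The libraries held between 17693755 and 20286221 estimated counts. Mmp3, the gene that named the groups, stood at 106 and 131 CPM (counts relative to the TMM-scaled library size) in the Mmp3-negative libraries and at 4161 and 3409 CPM in the Mmp3-positive ones (log2 fold change 4.999 with a standard error of 0.21, edgeR adjusted p = 0.00793). Stromal fibroblast markers were present in every library, with 14780 to 25080 summed CPM over 8 genes. Between libraries of the same group the median absolute log2 difference over all genes was 0.795 for Mmp3-negative and 0.501 for Mmp3-positive cells.

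Transcripts of all members were detected in all 4 libraries. On the TPM scale, which is per length and allows comparison between genes, H2-D1 had the highest mean level over the 4 libraries (1095 TPM), followed by H2-K1 (773), Tapbp (682), B2m (226), Nlrc5 (153), Tap1 (145), Tap2 (133), Psmb8 (89.9) and Psmb9 (22.7). Only 2 pairs of neighbours in that order had ranges that did not overlap. The lowest Tapbp value, 394 TPM, lay above the highest B2m value, 324 TPM, and the lowest Psmb8 value, 44.7 TPM, lay above the highest Psmb9 value, 37.9 TPM. In every library H2-D1 was above H2-K1, by a TPM ratio of 1.13 and 1.31 in Mmp3-negative and of 1.53 and 1.57 in Mmp3-positive libraries. In CPM that ratio was 1.644 and 1.807 against 1.626 and 1.886, so the groups overlapped. On protein coding transcripts alone the TPM ratio was 1.422 and 1.384 against 1.69 and 1.504, without overlap. A group difference in the ratio thus depended on the scale and was not tested. TPM values of Mmp3-negative replicate 1 were low for many genes, and in that library 10 transcripts held 40.8% of the TPM, against 21.1% to 25.6% in the other libraries. Comparisons between groups are on CPM, and the TPM fits are alternatives.

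**Figure D1:**
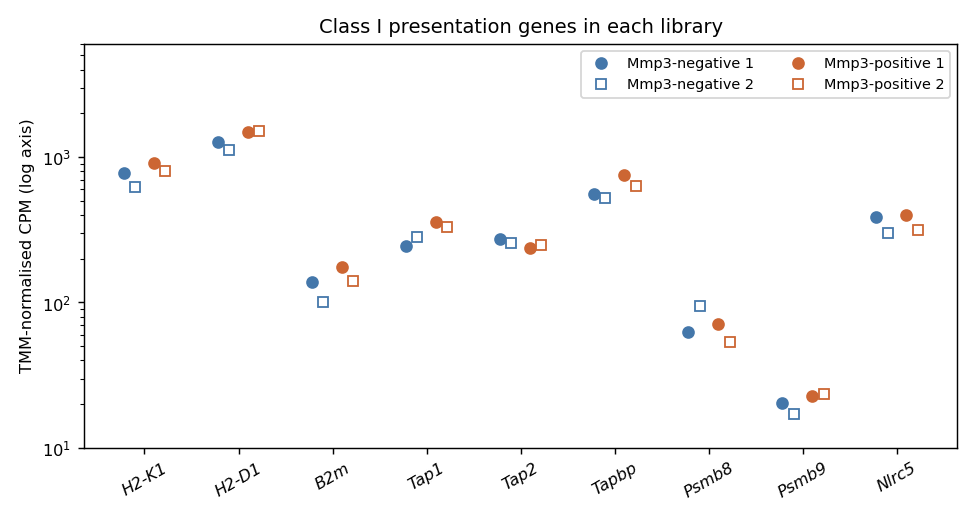
TMM-normalised CPM (log axis) of the 9 members in each library, circles for replicate 1 and open squares for replicate 2, blue for Mmp3-negative and orange for Mmp3-positive cells. The 4 libraries lie within 1.74-fold of each other for each member, with H2-D1 highest (1128 to 1518 CPM) and Psmb9 lowest (17.1 to 23.3 CPM).

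Both Mmp3-positive and Mmp3-negative cells carried the class I presentation genes, and the ratio of the group means in CPM ran from 0.800 for Psmb8 to 1.33 for B2m. By edgeR's test 0 of the 9 members passed in either direction, and 0 had an unadjusted p under 0.05. Among all genes tested 0.0211% passed, 0.00705% higher and 0.0141% lower in Mmp3-positive cells, and 8.87% had an unadjusted p under 0.05. By DESeq2's Wald test 9.64% of all genes passed and again 0 of the 9 members. The median log2 fold change of the 9 members, Mmp3-positive minus Mmp3-negative, was 0.29, beside 0.02 over all genes tested. Of the members 7 were above 0 and 2 below, beside 7251 above and 6934 below among the 14185 genes tested. The members' median rested in part on 1 library: without Mmp3-negative replicate 2 it was 0.16, beside 0.17 over all genes. On log2(TPM + 1) it was 0.65, beside 0.29 over all genes. In 6 members both Mmp3-positive libraries were above both Mmp3-negative ones, as in 22.5% of all genes tested, and in 1 member both were below, as in 17.3% of all genes tested. Within the members' range of average level, 1594 and 1090 of 6655 genes did so. The 9 genes share their libraries and, in part, their reads, so they are not separate pieces of evidence. With 2 libraries in each group, an exact permutation test of a single gene cannot give a two-sided p below 0.333.

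The chains that form the class I molecule had higher values in both Mmp3-positive libraries, without passing the test. H2-K1, a heavy chain, stood at 777 and 624 CPM in the Mmp3-negative libraries and at 913 and 805 CPM in the Mmp3-positive ones. Its lower Mmp3-positive library was only just above its higher Mmp3-negative library (log2 fold change 0.29, standard error 0.17, 95% interval -0.14 to 0.72, edgeR adjusted p = 0.805). H2-D1, the other classical heavy chain of this strain, stood at 1276 and 1128 against 1485 and 1518 CPM. The groups did not overlap, and the Mmp3-positive libraries differed from each other by a log2 value of 0.03 (log2 fold change 0.32, standard error 0.14, 95% interval -0.02 to 0.665, edgeR adjusted p = 0.604). B2m, the invariant light chain, stood at 137 and 101.1 against 175 and 142 CPM. Here the gap between groups was small beside the difference within each (log2 fold change 0.41, standard error 0.25, 95% interval -0.21 to 1.03, edgeR adjusted p = 0.829). The upper bounds mean that a rise beyond 1.03 on the log2 scale was outside these intervals for any of the 3 chains. With 1 library left out, log2 fold changes of 0.15 to 0.46 were found for H2-K1, 0.24 to 0.41 for H2-D1 and 0.20 to 0.64 for B2m. The lowest values came without Mmp3-negative replicate 2, when they were 0.15 for H2-K1, 0.24 for H2-D1 and 0.20 for B2m, beside 0.17 over all genes, so H2-K1 was then below the median of all genes.

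Reads of the heavy chains are hard to assign. Of the distinct stretches of 31 bases in H2-K1 transcripts, 24.2% also occurred in transcripts of other genes, and 12.3% occurred in H2-D1. For H2-D1 the share was 26.8%, with 13.8% in H2-K1, while B2m shared 0. How reads were divided between the heavy chains is therefore uncertain. Summed, H2-K1 and H2-D1 stood at 2053 and 1753 CPM in Mmp3-negative and at 2398 and 2322 CPM in Mmp3-positive libraries. The Mmp3-positive mean was 1.24 times the Mmp3-negative one. The ratio of heavy chain to B2m in TPM was 7.10 and 10.1 against 7.54 and 8.50, so the groups overlapped.

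Of the transporter, Tap1 and Tap2 lay on opposite sides of 0. Tap1 stood at 246 and 284 CPM in the Mmp3-negative libraries and at 358 and 328 CPM in the Mmp3-positive ones, without overlap (log2 fold change 0.37, standard error 0.17, 95% interval -0.05 to 0.79, edgeR adjusted p = 0.638). Tap2 stood at 271 and 258 against 236 and 249 CPM. It varied least of the members, by 1.15-fold between its highest and lowest library, and was the only member with both Mmp3-positive libraries below both others (log2 fold change -0.13, standard error 0.16, 95% interval -0.53 to 0.28, edgeR adjusted p = 0.998). In CPM the ratio of Tap1 to Tap2 was 0.908 and 1.10 in the Mmp3-negative and 1.51 and 1.32 in the Mmp3-positive libraries, and the groups did not overlap. On protein coding transcripts alone the TPM ratio was 0.743 and 7.20 against 9.44 and 11.0, so Mmp3-negative replicate 1 stood apart. The difference between the genes was not tested.

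Most Tap2 counts were not on a coding transcript. Between 83.0% and 87.0% of them in each library were assigned to Tap2-202, a transcript of 2561 bases annotated as a retained intron. The longest coding transcript, Tap2-201 of 3442 bases, had 441 and 683 against 741 and 635 counts, so its groups overlapped. Tap2-203, a coding transcript of 376 bases, had 386 counts in Mmp3-negative replicate 1 and 0 in every other library. Of the Tap2 stretches of 31 bases, 11.3% also occurred in Gm15821, a long noncoding RNA on the opposite strand that had at most 7 counts. Tap1 had between 85.0% and 93.5% of its counts on protein coding transcripts. Tapbp, which bridges the transporter and the empty class I molecule, stood at 553 and 521 against 753 and 635 CPM. Both Mmp3-positive libraries were above both others (log2 fold change 0.37, standard error 0.16, 95% interval -0.03 to 0.76, edgeR adjusted p = 0.601). A noncoding transcript of 649 bases, Tapbp-202, held 15.8% and 16.1% of the Tapbp counts in the Mmp3-negative and 25.4% and 25.4% in the Mmp3-positive libraries. On protein coding transcripts alone the Tapbp log2 fold change was 0.17. As whole genes, introns included, Tapbp overlaps Zbtb22, a zinc finger gene on the same strand, over 3422 bases. Zbtb22 had 771 to 1029 counts in each library. Of the Tapbp stretches of 31 bases, 3.43% also occurred in transcripts of other genes, and at most 1.22% in Zbtb22.

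**Figure D2:**
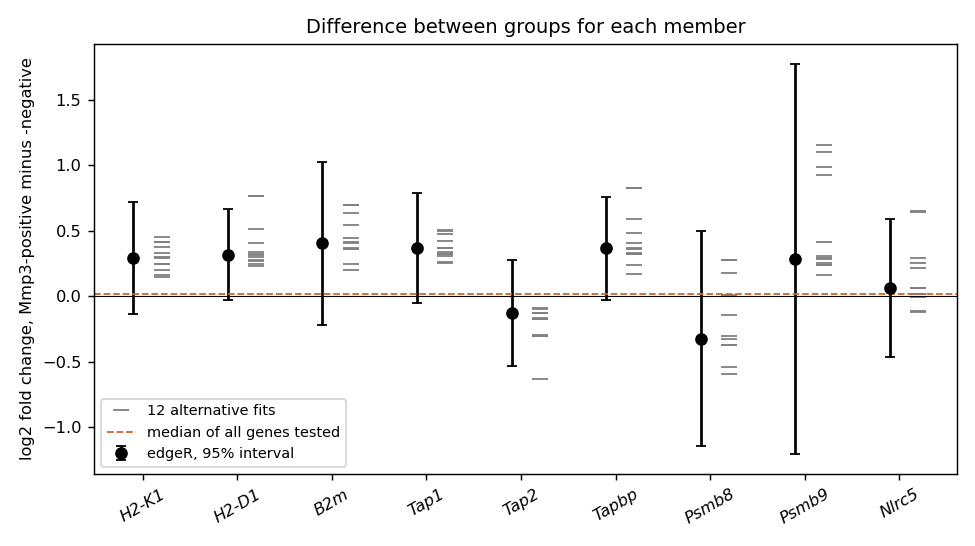
Log2 fold change of each member, Mmp3-positive minus Mmp3-negative, as points with 95% intervals from edgeR, with grey ticks for the 12 alternative fits and a dashed line at the median of all genes tested. Every interval includes 0. Psmb9 has the widest interval (-1.20 to 1.78), and only Psmb8 and Nlrc5 have ticks on both sides of 0.

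The immunoproteasome subunits were the least abundant members and had the widest intervals. Psmb8 (LMP7), the chymotrypsin-like immunosubunit, stood at 62.3 and 93.9 CPM in the Mmp3-negative and at 71.2 and 53.8 CPM in the Mmp3-positive libraries. Its groups overlapped, and the difference was 0.19 in Set 1 and -0.80 in Set 2 on the log2 scale (log2 fold change -0.32 with a standard error of 0.33, edgeR adjusted p = 0.984). With Mmp3-negative replicate 2 left out the log2 fold change was 0.006. Psmb9 (LMP2), which replaces Psmb6, stood at 20.5 and 17.1 against 22.6 and 23.3 CPM, without overlap (log2 fold change 0.29 with a standard error of 0.60, edgeR adjusted p = 0.999).

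Both genes had counts on retained introns in shares that differed between libraries. Protein coding transcripts held 28.7% and 58.6% of the Psmb9 counts in the Mmp3-negative and 98.1% and 43.9% in the Mmp3-positive libraries. For Psmb8 the shares were 78.0% and 59.6% against 94.8% and all of the counts, so that both Mmp3-positive libraries lay above both others. That was not particular to Psmb8. The H2-K1 coding shares were 86.1% and 86.2% against 90.9% and 90.3%. Those of Tapbp were apart in the other direction, 78.2% and 79.0% against 69.3% and 71.6%. Such shares were not compared over all genes. On protein coding transcripts alone, the log2 fold changes were 0.18 for Psmb8 and 0.99 for Psmb9, and neither passed edgeR's test. In GENCODE M21 the start regions of Psmb9 and Tap1 overlap by 212 bases on opposite strands, whereas the RefSeq starts given above lie apart. The strand setting of the quantification was not given, so reads from that overlap cannot be told apart here.

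Immunosubunits and their constitutive counterparts were also compared within each library. The summed TPM of Psmb8, Psmb9 and Psmb10 over that of Psmb5, Psmb6 and Psmb7, the constitutive catalytic subunits, was 1.44 and 1.12 in the Mmp3-negative and 1.10 and 1.04 in the Mmp3-positive libraries. The mean difference was -0.25 on the log2 scale, and the exact permutation test cannot go below p = 0.333 with this number of libraries. With protein coding transcripts alone the difference turned to 0.60, and with Psmb8 and Psmb9 over Psmb5 and Psmb6 it turned to 0.16, so no direction held. The level of the ratio changed too. On protein coding transcripts it was 0.532 and 0.476 against 1.003 and 0.576. For Psmb8 and Psmb9 over Psmb5 and Psmb6 it was 0.506 and 0.513 against 0.652 and 0.497. Whether immunosubunits exceeded constitutive ones thus depended on the transcripts and subunits counted. Of the constitutive subunits 0 of 3 passed in edgeR or DESeq2. An unadjusted edgeR p under 0.05 was found for 0, beside 8.87% of all genes, and their median log2 fold change was 0.04.

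Nlrc5, the class I transactivator, stood at 390 and 299 CPM in Mmp3-negative and at 403 and 317 CPM in Mmp3-positive libraries. The libraries of Set 1 were the higher ones in both groups, and the groups overlapped (log2 fold change 0.06, standard error 0.21, 95% interval -0.46 to 0.59, edgeR adjusted p = 0.999). None of its stretches of 31 bases occurred in another gene. Its counts were spread over several transcripts, and Nlrc5-207, of 7578 bases, held 53.8% and 62.5% of them in the Mmp3-negative and 28.3% and 34.5% in the Mmp3-positive libraries.

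**Figure D3:**
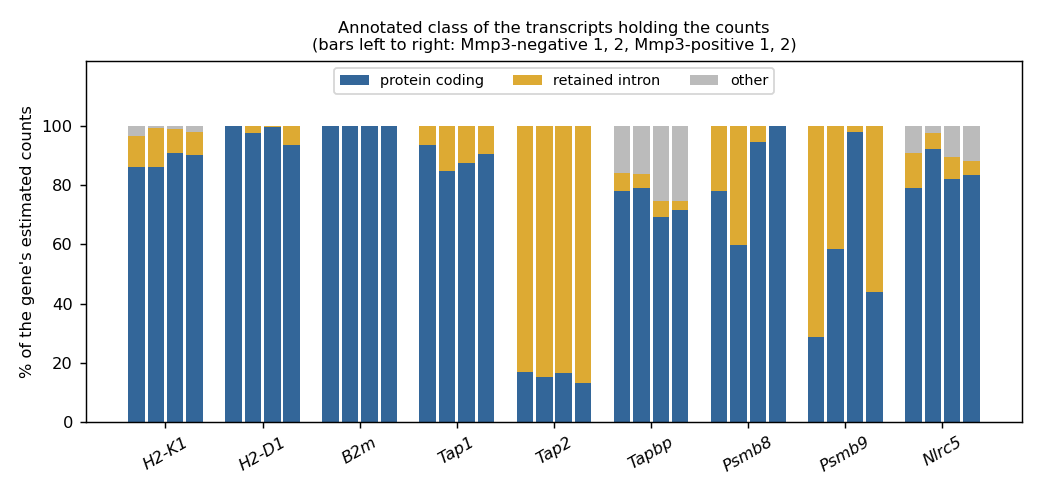
Share of each member's estimated counts (% of the gene, stacked to 100) on transcripts annotated as protein coding, retained intron or other, with 4 bars per gene for Mmp3-negative 1 and 2 and Mmp3-positive 1 and 2. Retained introns hold 83.0% to 87.0% of the Tap2 counts, and the coding share of Psmb9 runs from 28.7% to 98.1%.

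In the wider class I pathway 0 genes passed edgeR's test. By DESeq2's test 1 of 8 loading and trimming genes and 1 of 20 regulators passed, beside 9.64% of all genes, so neither count is a result about these lists. Of the 8 loading and trimming genes, 0 passed in edgeR and 1 had an unadjusted p under 0.05, beside 8.87% of all genes. A log2 fold change above 0 was found for 6 (median 0.18), beside 7251 of all 14185 genes tested. Calr, the chaperone calreticulin of the loading complex, stood at 331 and 396 CPM in Mmp3-negative and at 568 and 595 CPM in Mmp3-positive libraries. The groups were well apart, and the call depended on the tool (log2 fold change 0.68 with a standard error of 0.16, edgeR adjusted p = 0.480). Calr was the 1 gene of the 8 past DESeq2's threshold. Canx, the chaperone calnexin that holds newly made heavy chains, had a log2 fold change of 0.32, and Hspa5, the general chaperone BiP, had 0.07. Of 5 genes for the third immunosubunit, the proteasome activators and assembly, 0 passed in edgeR or DESeq2. An unadjusted edgeR p under 0.05 was found for 0, beside 8.87% of all genes, and the median was -0.03. Psmb10 had 0.17, and the activator subunits Psme1 and Psme2 had -0.03 and -0.03.

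Of 12 nonclassical class I and class I-like genes, 0 passed in edgeR or DESeq2 and 0 had an unadjusted edgeR p under 0.05, beside 8.87% of all genes. Of these 12, 6 were above and 6 below 0, with a median of -0.04. H2-Q4 stood at 477 and 374 against 507 and 395 CPM and H2-T23, whose product presents leader peptides, at 197 and 132 against 165 and 146 CPM. H2-Q6 had a log2 fold change of 0.26. Of this list, H2-Q7 shared 8.29% of the H2-K1 stretches of 31 bases and 8.14% of those of H2-D1, and H2-Q4 shared 7.64% of those of H2-D1.

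Of 20 genes for regulators of class I promoters and interferon signalling, 0 passed in edgeR and 1 had an unadjusted p under 0.05, beside 8.87% of all genes, with 13 above and 7 below 0 (median 0.18). Irf1, an interferon-induced activator of class I and immunoproteasome genes, stood at 192 and 166 CPM in the Mmp3-negative and at 106 and 77.2 CPM in the Mmp3-positive libraries. Its groups were apart in the direction opposite to H2-D1 and Tap1, and its call too depended on the tool (log2 fold change -0.96 with a standard error of 0.25, edgeR adjusted p = 0.480). Irf1 was the 1 gene of the 20 past DESeq2's threshold, beside the 9.64% of all genes. Stat2 and Irf9, subunits of the complex that acts after type I interferon, had log2 fold changes of 0.27 and 0.34.

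Summed markers of several other cell types were lower in the Mmp3-positive libraries, although 0 genes of these lists passed edgeR's test. In bulk samples fewer cells of a type and less RNA per cell cannot be told apart. The 14 leukocyte markers summed to 273 and 185 CPM in the Mmp3-negative and 33.3 and 28.0 CPM in the Mmp3-positive libraries. Of them 6 were at 0 counts in both Mmp3-positive libraries, and 2 of those were at 0 in all 4. The list's median log2 fold change was -3.13 over 11 tested genes. Of these, 4 had an unadjusted edgeR p under 0.05, beside 8.87% of all genes. DESeq2's test was passed by 4, beside 9.64% of all genes in either direction. Cd68, a macrophage gene, stood at 33.8 and 38.8 against 6.74 and 16.8 CPM, without overlap. C1qb, a complement gene of macrophages, stood at 78.6 and 10.6 against 16.1 and 0.0509 CPM, so its groups overlapped and Mmp3-negative replicate 1 was far above the rest. Laptm5, a lysosomal protein of blood cells, stood at 17.7 and 53.5 CPM against 0 counts in both Mmp3-positive libraries (edgeR adjusted p = 0.480).

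MHC class II genes and other markers of antigen presenting cells, 7 genes, summed to 163 and 82.7 CPM against 16.6 and 6.21 CPM. Of 6 tested, 0 passed in edgeR and 2 had an unadjusted p under 0.05, beside 8.87% of all genes. In DESeq2 2 passed, beside 9.64% of all genes in either direction. Cd74, the class II invariant chain, stood at 85.7 and 20.2 against 3.53 and 0.0509 CPM, and H2-Eb1, a class II beta chain, was at 34.6 and 21.1 CPM against 0 counts in both Mmp3-positive libraries. H2-Ab1, the other main beta chain, had a log2 fold change of -5.65 (edgeR adjusted p = 0.609). The chains of class I, by contrast, summed to 2190 and 1854 against 2573 and 2464 CPM. Whether the class I and class II differences differ from each other was not tested.

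Of the remaining marker lists, endothelial genes summed to 254 and 188 against 108 and 107 CPM. Mural genes summed to 672 and 608 against 84.5 and 86.8 CPM. Log2 fold changes were below 0 in 6 of 7 tested endothelial and in 7 of 8 mural genes. The exceptions were Cdh5 (0.455, 9.5 and 0 against 2.79 and 10.2 CPM) and Rgs5 (0.425, 0 and 4.09 against 1.58 and 3.92 CPM). Pecam1 alone stood at 130 and 107 against 81.7 and 58.7 CPM. By DESeq2's test 3 of 7 endothelial and 5 of 8 mural genes were lower, beside 9.64% of all genes in either direction. By edgeR's unadjusted p 3 and 4 were under 0.05, beside 8.87% of all genes. T and NK cell markers summed to 1.15 to 25.1 CPM in the Mmp3-negative and 2.09 to 5.74 CPM in the Mmp3-positive libraries, and B cell markers to at most 1.73 CPM in any library. Of the 8 stromal fibroblast markers, 8 had a log2 fold change above 0 (median 0.53) and 0 passed in edgeR. An unadjusted edgeR p under 0.05 was found for 2, beside 8.87% of all genes. In DESeq2 2 passed, beside 9.64% of all genes. The collagen chains Col1a1, Col1a2 and Col3a1 had 0.10, 0.24 and 0.10. The DESeq2 calls were the platelet-derived growth factor receptors Pdgfra and Pdgfrb, with log2 fold changes of 0.75 and 0.76 in edgeR (edgeR adjusted p = 0.480 for each), and they were named after their values were seen. The part of these cell types in the class I values was not tested.

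**Figure D4:**
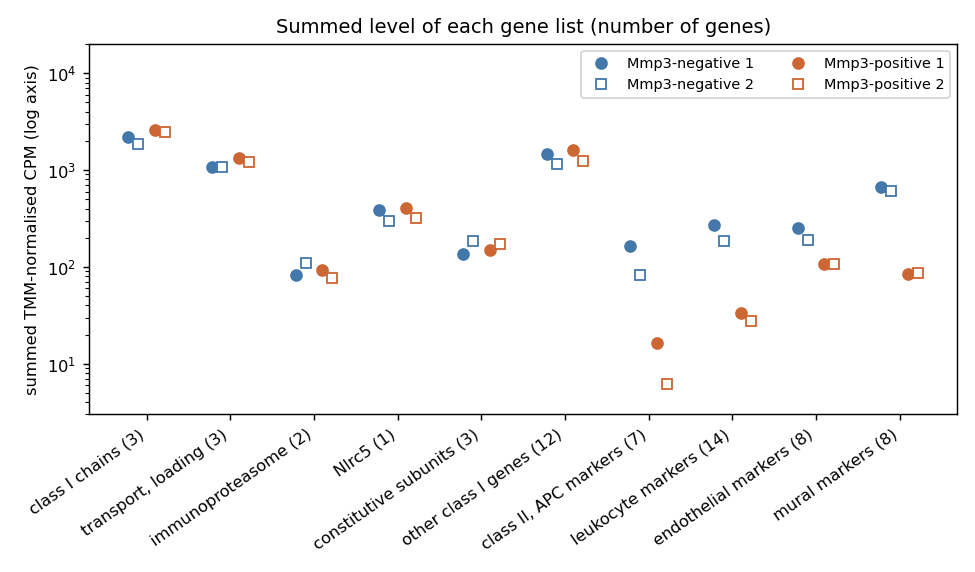
Summed TMM-normalised CPM (log axis) of each gene list in each library, with the number of genes in brackets, circles for replicate 1, open squares for replicate 2, blue for Mmp3-negative and orange for Mmp3-positive cells. Class I chains lie at 1854 to 2573 CPM in the 4 libraries, while class II and other markers of antigen presenting cells run from 163 down to 6.21 CPM.

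The 3 genes with the profile most like the members' mean, among 5172 with an average logCPM of at least 5, were Anapc2, Pspc1 and Sh3bgrl3. Likeness was the Euclidean distance between log2 CPM profiles centred over the 4 libraries, and the distances were 0.02, 0.05 and 0.05. Those of the members themselves ran from 0.19 for Tapbp to 0.72 for Psmb8. The Anapc2 levels were 131 and 124 CPM against 152 and 137 CPM. With 4 libraries such a profile rests on few values.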

How the data were processed

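RNA was sequenced from 4 libraries, per the labels from rRNA-depleted, strand-specific preparations of RNA extracted with a kit for fixed tissue. Per the submitters' processing notes, kallisto 0.45.0 and GRCm38 were used. The authors deposited, per the file headers, for each of 115270 transcripts its estimated count, its TPM and its effective length. Which transcripts were indexed, the strand setting and any trimming: not given in the sources used here.

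Of the transcripts, 113580 were matched by identifier to GENCODE M21 genes on GRCm38. The unmatched 1690 held 0.729% to 2.08% of the counts. Estimated counts were summed per gene, rounded, filtered with filterByExpr (minimum count 10), scaled by TMM and tested with edgeR 4.0.16 (R 4.3.3), quasi-likelihood, two-sided, Benjamini-Hochberg over 14185 genes, threshold 0.05. Standard errors were taken as log2 fold change divided by the root of F. The 95% intervals use the fit's total degrees of freedom, which are the 2 residual ones plus those borrowed from other genes. Alternatives were limma 3.58.1 on log2(TPM + 1) and log2(TPM + 0.1), DESeq2 1.42.0, and others given below. Of the tests, only the edgeR fit was tried on simulated data. Python 3.11.15, pandas 2.3.3 and matplotlib 3.10.9 were used for sums and plots.

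The members, lists and tests were chosen with earlier results of these data known. Named genes were the 9 members, Mmp3, and of each other list those past the threshold or the 3 with the highest mean TPM, not all of which are printed. H2-M3, Pdgfra, Pdgfrb, Cdh5, Rgs5 and the printed transcripts were named after their values or sequences were seen. The set numbers were not shown to pair libraries.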

Additional observations from a re-analysis of the deposited data

How the results depend on the processing

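No member passed the threshold under any of the 12 alternatives (lowest adjusted p 0.101, Tapbp in DESeq2), and 7 of 9 kept their direction in all of them. Psmb8 (-0.32) was 0.014 with the length offset, 0.277 and 0.282 in the limma fits, 0.179 on protein coding transcripts and -0.592 to 0.006 with a library left out. Nlrc5 (0.06) was 0.297 with the length offset, 0.646 and 0.65 in the limma fits, -0.007 on protein coding transcripts and -0.12 to 0.259 with a library left out. The members' median (0.294) was 0.646 in limma on log2(TPM + 1) and 0.65 on log2(TPM + 0.1), where all genes had 0.29 and 0.37, and 0.164 to 0.407 with a library left out. Under the replicate block (the Set numbers) it was 0.30, beside 0.12 for all genes, and no member's call changed. Deviations of same-numbered libraries correlated at 0.0261 over 2 pairs.

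The immunoproteasome log2 difference (-0.247) was -0.015 in CPM, 0.595 on protein coding transcripts, 0.161 for Psmb8 and Psmb9 over Psmb5 and Psmb6, and -0.425 to -0.07 with a library left out. Mmp3 (4.999) was 5.271 (limma adjusted p = 0.545) and 5.29 (limma adjusted p = 0.402) on the TPM scales. Against 1 gene higher and 2 lower in edgeR, an unfiltered table gave 4 and 23, DESeq2's Wald test 775 and 593, and the block 1 and 4. The length offset gave 1 and 0, as did protein coding transcripts. Both limma fits gave 0 and 0, with 1064 and 1163 genes at an unadjusted p under 0.05. With a library left out the counts ran from 1 to 237 higher and from 1 to 116 lower. They were 234 and 98 without Mmp3-negative replicate 1, and 237 and 116 without replicate 2 of that group. In these fits the spread of the single library is taken from the other group. The cause of these differences was not tested. Psmb9 had the fewest counts of the members, 297 to 458 in each library, and what sets its wide interval was not tested.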
